A study of Homo sapiens with 14 samples.

Results

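The transcripts described here are those of 10 genes, regulators of the integrated stress response together with one of its best known end products. They are the transcription factors ATF4, ATF3, ATF5 and DDIT3, the regulators TRIB3, PPP1R15A, SESN2, DDIT4 and NUPR1, and the enzyme CHAC1. The genes were listed by name, and each was represented by the transcript entry chosen by its mean FPM (fragments scaled to library size), the highest of the gene's entries over the 14 libraries. All 10 were found among 22410 genes with a named entry, and all 10 were among the 16418 genes that passed a filter on low counts (a minimum count of 10). The list was drawn up when a lower CHAC1 level in SA1Q cells than in ctrl cells was already known from these libraries, so levels and that contrast are a description of CHAC1 and not a test of it.

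The cells were 293 Flip-In T-REx, a human embryonic kidney line with a recombination site for a transgene, and poly(A) RNA was sequenced to look for off-target editing. A SNAP-ADAR is an editing enzyme built from a self-labelling SNAP tag, which binds a chemically modified guide RNA, and an adenosine deaminase domain, that of ADAR in SA1 and that of ADARB1 in SA2. The groups were SA1Q+gRNA and SA1Q (SNAP-ADAR1 with the E406Q substitution, with and without guide), SA2Q+gRNA and SA2Q (SNAP-ADAR2 with E403Q, with and without guide), SA1+gRNA and SA2+gRNA (unsubstituted deaminase domain, with guide) and ctrl (empty vector, no guide). Each group had 2 libraries, from 2 independent experiments per the design text. The Q substitution is known to make the deaminase more active. The labels name 1 line per construct, so a difference between constructs and a difference between lines cannot be told apart, and SA1 and SA2 cells without guide were not analysed here. The target of the guide is not given in the sources used here.

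In the integrated stress response, kinases that sense amino acid shortage, unfolded protein, heme shortage or double-stranded RNA phosphorylate the initiation factor eIF2, which lowers protein synthesis overall while ATF4 mRNA is translated more. ATF4 then raises genes for amino acid uptake and synthesis, together with DDIT3, TRIB3, CHAC1 and other regulators, and PPP1R15A brings a phosphatase to eIF2 that ends the response. ATF4 is set largely by translation, so the level of its mRNA is not a measure of its activity, and nothing here measures protein or eIF2 phosphorylation.

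Library totals ran from 43.0 to 130.1 M fragments. The constructs were checked by their parent genes: ADAR averaged 1230 ± 134 CPM (counts scaled to library size by TMM) in SA1Q+gRNA, 1090 ± 10.3 in SA1Q and 1510 ± 125 in SA1+gRNA (SD, n = 2 each) and 303 to 324 in the other groups. ADARB1 averaged 1160 ± 2.02 CPM in SA2Q+gRNA, 1010 ± 99.3 in SA2Q and 974 ± 11.7 in SA2+gRNA (SD, n = 2 each) and 27.8 to 33.3 elsewhere. Markers usual in 293 cells were present (VIM 958 to 1290 CPM, KRT8 231 to 349, LIN28B 83.8 to 108), and NEFM was at 0.815 to 1.78 CPM. Of 14 markers of epithelium, fibroblasts, blood and liver, 9 stayed under 1 CPM in every library, among them DCN, HBB, PTPRC and ALB. The other 5 did not: EPCAM was at 80.7 to 99.1 CPM, LCP1 at 110 to 163, CD68 at 10.7 to 21.8, COL1A1 at 4.93 to 8.43 and CDH1 at 1.52 to 4.65. On the first principal component, SA1Q+gRNA replicate 1 (-50.93) and ctrl replicate 1 (-46.8) stood apart from the other 12 libraries (0.45 to 14.05). All counts of SA1+gRNA replicate 2, the deepest library, were even numbers, against 47.7% to 48.7% in the others; the sources used here give no reason.

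Per length of transcript, ATF4 was the most abundant of the 10 genes, at a mean of 367 FPKM over the 14 libraries (range 314 to 415). DDIT4 (42.9 FPKM), ATF3 (39.4), PPP1R15A (37.4), SESN2 (26.1), TRIB3 (21.9), DDIT3 (21.1) and ATF5 (16.1) followed. CHAC1 (3.16 FPKM, range 1.53 to 4.89) and NUPR1 (1.88 FPKM, range 0.578 to 3.85) were the least abundant. Their counts were 118 to 992 fragments for CHAC1 and 26 to 232 for NUPR1, against 31305 to 102520 for ATF4, so counting error weighs most on these genes. The highest group mean in CPM was 3.35 times the lowest for NUPR1, 2.72 times for CHAC1 and 2.69 times for DDIT4, and 1.2 to 1.47 times for the other 7 genes.

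CHAC1 and DDIT4 were the genes of the 10 that differed over the 7 groups. With edgeR's quasi-likelihood test of all groups at once, the Benjamini-Hochberg adjusted p was 0.0013 for CHAC1 and 0.0086 for DDIT4, a test that includes the SA1Q and ctrl libraries from which the CHAC1 difference was known. Of all genes tested, 1.57% passed. The other 8 had adjusted p from 0.068 (NUPR1) to 0.79 (ATF5) in that edgeR test. At an unadjusted p under 0.05, 9 of the 10 passed, all but ATF5, against 16.8% of all genes. The number passing after adjustment was sensitive to single libraries, at 2 to 7 of 10 when 1 library was left out. It was 7 without SA1Q+gRNA replicate 2, and 4 without either ctrl library or without SA1Q+gRNA replicate 1. The number of all genes passing moved with it, from 258 to 1057 without SA1Q+gRNA replicate 2 and to between 445 and 468 without any one of the other 3.

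CHAC1 encodes a gamma-glutamylcyclotransferase of the cytosol that breaks down glutathione, and is a target of ATF4. Its transcript (chromosome 15, 41245636 to 41248717 on hg19, plus strand) stood at 4.01 and 3.02 CPM in the SA1Q+gRNA libraries and 2.74 and 2.53 in the SA1Q libraries. It stood at 4.74 and 4.94 CPM in SA2Q+gRNA and 4.20 and 4.36 in SA2Q. The lines with the unsubstituted domain held more, at 6.14 and 8.19 CPM in SA1+gRNA and 6.86 and 7.27 in SA2+gRNA, and ctrl held 7.86 and 6.44. All 8 libraries of the Q lines were therefore below all 6 libraries without the substitution. The share of all genes split in this way was not computed, and CHAC1 was listed with its low SA1Q level known. In the single pairs of groups for which a share is given below, 38.8% to 47.8% of all genes did not overlap. The means were 3.52 ± 0.701 CPM in SA1Q+gRNA, 2.64 ± 0.147 in SA1Q, 4.84 ± 0.14 in SA2Q+gRNA, 4.28 ± 0.113 in SA2Q, 7.16 ± 1.45 in SA1+gRNA, 7.06 ± 0.296 in SA2+gRNA and 7.15 ± 1 in ctrl (SD, n = 2 each). From the bottom the order was SA1Q, SA1Q+gRNA, SA2Q, SA2Q+gRNA and SA2+gRNA, each neighbour without overlap of its libraries, while SA2+gRNA, ctrl and SA1+gRNA overlapped. In these bulk samples, fewer cells expressing a gene and less RNA per cell cannot be told apart.

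DDIT4, also called REDD1, holds back the growth kinase complex mTORC1 and is raised by low oxygen, glucocorticoids and ATF4. Its transcript (chromosome 10, 74033677 to 74035797 on hg19, plus strand) stood at 49.4 and 50.8 CPM in SA1Q+gRNA and 54.5 and 49.9 in SA1Q. It stood at 59.7 and 67.8 CPM in SA2Q+gRNA and 71.5 and 78.1 in SA2Q. The values were 120 and 87.6 CPM in SA1+gRNA, 173 and 96.8 in SA2+gRNA and 68.0 and 89.0 in ctrl. The group means were lowest in the SA1Q line and highest in the lines with unsubstituted domain and guide, whose replicates lay far apart (the first was 1.37 times the second in SA1+gRNA and 1.78 times in SA2+gRNA). Neighbouring groups overlapped from SA2Q upwards in the order SA2Q, ctrl, SA1+gRNA, SA2+gRNA.

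**Figure D1:**
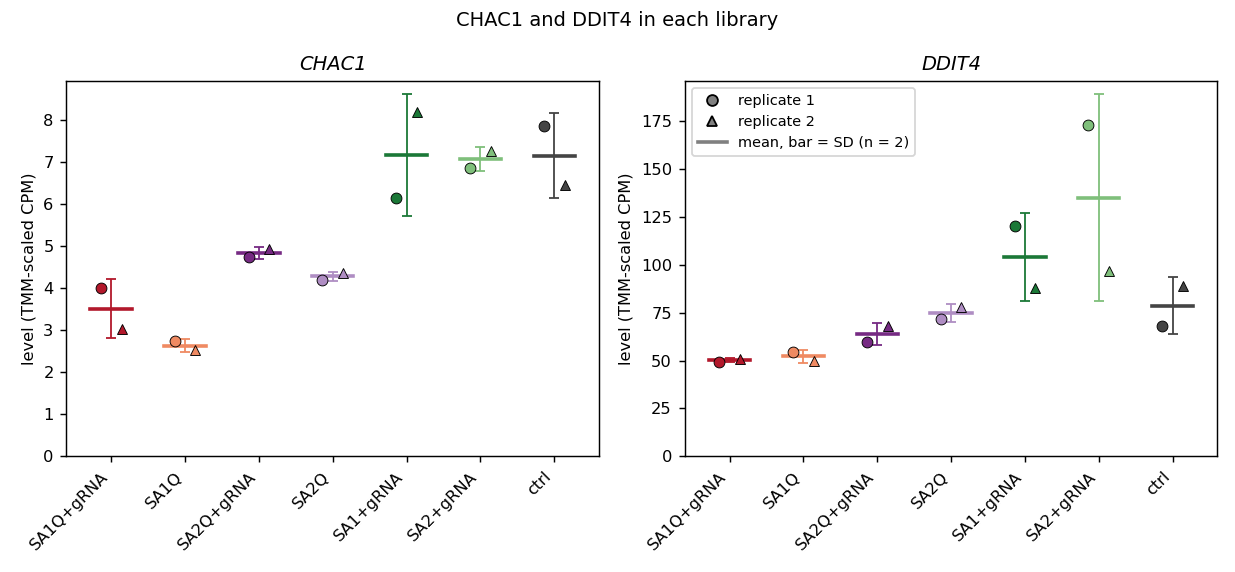
Levels of CHAC1 (left) and DDIT4 (right) in TMM-scaled CPM, by group; circles are replicate 1, triangles replicate 2, and the line and bar are the mean and SD of n = 2. CHAC1 lies between 2.53 and 4.94 CPM in the 8 libraries of the Q lines and between 6.14 and 8.19 CPM in the other 6, and DDIT4 spreads most in SA2+gRNA (173 and 96.8 CPM).

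Because both genes were called lower in SA1Q+gRNA than in SA1+gRNA, their upstream sequences are shown. They are the 250 bases before the start of the gene in RefSeq (build GRCh38.p14, which is not the build of the files), at chr15:40953221-40953470 for CHAC1 and chr10:72273674-72273923 for DDIT4, both on the plus strand. Capitals mark a match to the C/EBP-ATF response element TGATGNAA, at which ATF4 binds as a dimer with a C/EBP protein, or to its reverse complement TTNCATCA.
CHAC1: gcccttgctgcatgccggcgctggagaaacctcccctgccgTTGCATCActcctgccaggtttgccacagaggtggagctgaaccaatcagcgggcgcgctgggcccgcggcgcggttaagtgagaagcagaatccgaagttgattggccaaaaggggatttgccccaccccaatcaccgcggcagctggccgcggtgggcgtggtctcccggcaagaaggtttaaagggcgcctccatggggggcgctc
DDIT4: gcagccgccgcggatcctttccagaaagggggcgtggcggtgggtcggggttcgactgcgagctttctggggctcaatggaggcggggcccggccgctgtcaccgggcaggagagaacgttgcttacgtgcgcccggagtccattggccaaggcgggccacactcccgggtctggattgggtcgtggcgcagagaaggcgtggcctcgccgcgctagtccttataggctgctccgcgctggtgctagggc
CHAC1 held 1 match, TTGCATCA on the strand shown, starting 209 bases upstream, and DDIT4 held none in the 300-base window searched (250 before to 50 after the start). Over both strands, 3.62% of 35116 RefSeq windows of that length held the motif. The cyclic AMP response element TGACGTCA was in 1.85% of windows and the bipartite ER stress response element in 0.0769%. Windows were matched for 9 of the 10 genes, 16 windows in all, and NUPR1 was not matched. ATF3 held TGATGGAA starting 191 bases upstream in 1 of its windows and not in the other. Windows were matched by gene symbol, so they need not lie at the start of the entry used for the levels. PPP1R15A held TGACGTCA starting 58 bases upstream, and none of the 16 windows held the ER stress response element. A match is a description of the letters and not evidence of binding.

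The comparison of Q with unsubstituted deaminase, both with guide, shares neither group with the comparison from which CHAC1 was known. For ADAR, however, SA1Q+gRNA is the SA1Q line with guide, so a CHAC1 level particular to that line enters both. The CHAC1 value there is not independent of the known contrast. In the ADAR lines, CHAC1 and DDIT4 were both lower in SA1Q+gRNA than in SA1+gRNA. CHAC1 differed by -1.05 on the log2 scale (SE 0.17, 95% interval -1.42 to -0.69, adjusted p = 0.011, edgeR's quasi-likelihood test with Benjamini-Hochberg adjustment). DDIT4 differed by -1.05 (SE 0.21, interval -1.49 to -0.6, adjusted p = 0.03, edgeR). These were 2 of the 10 genes, both lower, against 0.962% of all genes called and 0.512% called lower. Neither call held in every alternative. The CHAC1 value was -0.82 (adjusted p = 0.12, edgeR) without SA1+gRNA replicate 2, the library with even counts, and over the 22 alternatives its adjusted p ran from 1.9e-05 to 0.12. With the counts of that library halved the CHAC1 value was -1.04 (adjusted p = 0.012, edgeR). For DDIT4 the edgeR call was lost without SA1+gRNA replicate 1 (-0.81, adjusted p = 0.34), without SA1+gRNA replicate 2 (-1.26, 0.052) and without SA1Q+gRNA replicate 1 (-1.03, 0.14). It was also lost, with values of -1.05, without SA2Q replicate 1 or SA2Q+gRNA replicate 2 (adjusted p = 0.053 each) or SA2Q+gRNA replicate 1 (0.05), libraries that enter only through the shared spread. The limma fit of log2(FPKM + 1) gave -1.02 (adjusted p = 0.057), and the range of adjusted p for DDIT4 over the alternatives was 0.00062 to 0.34.

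In the ADARB1 lines no gene of the 10 passed in edgeR, where 0.0122% of all genes did, and 6 of the 10 had an unadjusted p under 0.05 against 7.86% of all genes. CHAC1 was at 4.74 and 4.94 CPM in SA2Q+gRNA against 6.86 and 7.27 in SA2+gRNA, a difference of -0.55 (SE 0.17, 95% interval -0.9 to -0.2, adjusted p = 0.39, edgeR). DDIT4 was at 59.7 and 67.8 CPM in SA2Q+gRNA against 173 and 96.8 in SA2+gRNA, a difference of -1.08 (SE 0.21, interval -1.52 to -0.64, adjusted p = 0.15, edgeR). The libraries of the groups did not overlap for either gene. Without SA2+gRNA replicate 1, the library at 173 CPM, the DDIT4 difference was -0.6 (adjusted p = 1, edgeR), and without SA2+gRNA replicate 2 it was -1.44 (adjusted p = 0.0078, edgeR). Over the alternatives the adjusted p for DDIT4 ran from 0.0045 to 1. Libraries of the groups did not overlap for 8 of the 10 genes, against 47.8% of all genes.

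Whether the size of the Q difference itself differed between the ADAR and ADARB1 lines was tested after the values above had been seen. For CHAC1 the Q difference in the ADAR lines minus that in the ADARB1 lines was -0.50 (SE 0.24, 95% interval -1.01 to 0, adjusted p = 0.53, edgeR), and for DDIT4 it was 0.03 (SE 0.29, interval -0.59 to 0.65, adjusted p = 0.98, edgeR). None of the 10 passed with edgeR or DESeq2, and none of all 16418 genes passed with edgeR, although 9.39% (and 0 of the 10) had an unadjusted p under 0.05, DESeq2 called 52 genes and edgeR called 0 to 326 with 1 library left out. A difference of the Q effect between the enzymes was therefore not shown for any of the 10, and the intervals do not exclude one of up to about 1 on the log2 scale for CHAC1.

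Also chosen after seeing the values, the mean of the Q lines was set against the mean of the unsubstituted lines, all with guide. CHAC1 differed by -0.80 (SE 0.12, 95% interval -1.05 to -0.55, adjusted p = 0.0043, edgeR) and DDIT4 by -1.06 (SE 0.15, interval -1.38 to -0.75, adjusted p = 0.0027, edgeR). Both were lower in all 4 Q libraries than in all 4 unsubstituted libraries, a split for which the share of all genes was not computed. Over the 22 alternatives the values ran from -0.9 to -0.6 for CHAC1 and from -1.24 to -0.83 for DDIT4. Because the comparison was formed after these differences had been seen, it restates them and is not separate evidence. For CHAC1 it also holds SA1Q+gRNA, of the line in which a lower level was already known. Of all genes 0.859% were called and 0.603% called lower. Other members leaned the other way without passing. ATF3 differed by 0.25 (adjusted p = 0.083), DDIT3 by 0.30 (0.12) and PPP1R15A by 0.36 (0.14), while TRIB3 differed by -0.20 (0.16), ATF4 by -0.15 (0.33) and NUPR1 by -0.54 (0.23), all with edgeR. Without both libraries that stood apart, 6 of the 10 passed: CHAC1, DDIT4, ATF4 (-0.21, adjusted p = 0.0089) and TRIB3 (-0.23, 0.043) lower, and ATF3 (0.21, 0.045) and DDIT3 (0.28, 0.048) higher, with edgeR. With edgeR, 5 passed without SA1Q+gRNA replicate 2 (PPP1R15A, ATF3 and DDIT3 in addition) and 4 without either ctrl library (ATF3 and DDIT3 in addition), and over all alternatives 2 to 7 of the 10 passed. These settings also called more of all genes than the 141 of the fit to all libraries, namely 423 without both libraries that stood apart, 1049 without SA1Q+gRNA replicate 2 and 284 or 289 without a ctrl library.

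**Figure D2:**
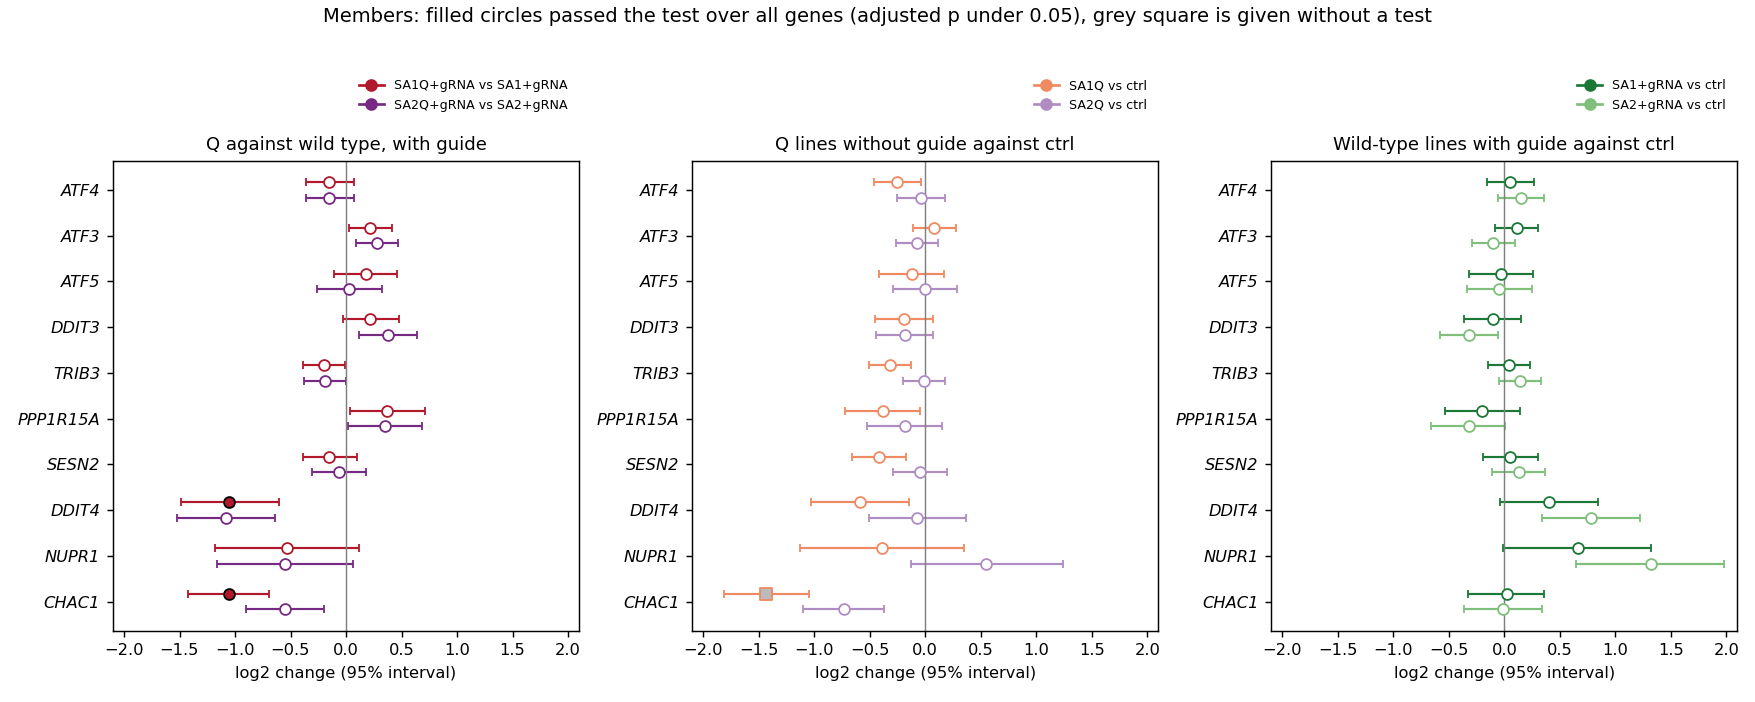
Log2 changes (points) with 95% intervals (bars) of the 10 genes for Q against unsubstituted deaminase with guide (left), Q lines without guide against ctrl (middle) and unsubstituted lines with guide against ctrl (right). CHAC1 and DDIT4 lie near -1 in SA1Q+gRNA against SA1+gRNA, CHAC1 lies at 0.02 and -0.01 in the unsubstituted lines against ctrl, and the grey square is CHAC1 in SA1Q against ctrl, which is given without a test.

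Against ctrl, the 6 comparisons share the same 2 ctrl libraries, so their values are set side by side and not counted as separate evidence. CHAC1 differed from ctrl by -1.03 in SA1Q+gRNA (SE 0.17, adjusted p = 0.011, edgeR), by -1.43 in SA1Q (SE 0.18, interval -1.81 to -1.05, given with no test), by -0.56 in SA2Q+gRNA (SE 0.17, adjusted p = 0.28, edgeR) and by -0.73 in SA2Q (SE 0.17, adjusted p = 0.16, edgeR). In SA1+gRNA it differed by 0.02 (95% interval -0.33 to 0.36) and in SA2+gRNA by -0.01 (interval -0.36 to 0.34). The SA1Q+gRNA values ran from -1.24 to -0.78 over the 22 alternatives. That comparison shares both its line and its ctrl libraries with the known contrast, so its call is not independent of that contrast. The SA2Q difference passed under DESeq2 (-0.74, adjusted p = 0.03) and with offsets for length and GC content (-0.69, adjusted p = 0.016, edgeR), and over the alternatives its adjusted p ran from 0.016 to 1.

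CHAC1 was 1 of 10 called in SA1Q+gRNA against ctrl (1.04% of all genes called) and 1 of 10 in SA1Q against ctrl (2.8%, from which nothing is read because that contrast was known). The call in SA1Q+gRNA is tied to the known contrast by its line and its ctrl libraries. No member was called in SA2Q+gRNA (0.067% of all genes), SA2Q (0.0853%), SA1+gRNA (0.0426%) or SA2+gRNA (0.104%), each against ctrl with edgeR. At an unadjusted p under 0.05 there were 2 members in SA2Q+gRNA (10.1% of all genes), 1 in SA2Q (8.86%), 0 in SA1+gRNA (10.7%) and 3 in SA2+gRNA (10.2%). In SA1Q against ctrl, 9 of the 10 values were below 0 (49.9% of all genes) with a median of -0.35 (0 over all genes), among them SESN2 at -0.42 (adjusted p = 0.063), TRIB3 at -0.32 (0.069), DDIT4 at -0.59 (0.13) and ATF4 at -0.25 (0.17), all with edgeR. Which of SESN2, TRIB3, DDIT4 and ATF4 passed depended on the setting and on single libraries. CHAC1 is not named among these because the contrast was known. The 9 values below 0 and the median of -0.35 include CHAC1, so they are not independent of that contrast. Over all genes, edgeR called 460 with every library and DESeq2 called 1074.

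NUPR1 encodes a small chromatin-associated stress protein. It stood at 1.21 and 1.51 CPM in SA1Q+gRNA, 1.33 and 0.558 in SA1Q, 1.91 and 2.37 in SA2Q+gRNA, 1.96 and 1.75 in SA2Q, 2.08 and 1.92 in SA1+gRNA, 3.72 and 2.61 in SA2+gRNA and 0.955 and 1.53 in ctrl. The SA2+gRNA libraries were the highest and did not overlap with any other group, and those of ctrl and of the SA1Q line overlapped at the bottom. The difference of SA2+gRNA from ctrl was 1.32 (SE 0.31, 95% interval 0.65 to 1.98), which did not pass (adjusted p = 0.13, edgeR). DDIT4 in SA2+gRNA differed from ctrl by 0.78 (SE 0.21, interval 0.34 to 1.22, adjusted p = 0.18, edgeR). With no filter on low counts both passed (adjusted p = 0.031 for NUPR1 and 0.033 for DDIT4, edgeR), DESeq2 called NUPR1 (adjusted p = 0.014), and DDIT4 passed without SA2+gRNA replicate 2 (1.14, adjusted p = 0.031, edgeR). Without both ctrl replicate 1 and SA1Q+gRNA replicate 1, ATF4 alone of the 10 passed in that comparison (0.33, adjusted p = 0.015, edgeR). Over all genes, 17 were called in that comparison with every library, 63 with no filter, 128 by DESeq2, 11 without SA2+gRNA replicate 2 and 473 without both libraries.

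The transcription factors moved little. ATF4 (chromosome 22, 39916569 to 39918691 on hg19, plus strand) stood at 811 and 685 CPM in SA1Q+gRNA, 672 and 672 in SA1Q, 768 and 832 in SA2Q+gRNA, 787 and 771 in SA2Q, 811 and 847 in SA1+gRNA, 890 and 883 in SA2+gRNA and 890 and 708 in ctrl. SA1Q was lowest and SA2+gRNA highest, and ctrl spanned nearly that whole range. ATF3, a stress-induced repressor and activator of the same bZIP family, ran from 84.5 CPM in a SA2Q library to 125 in a SA1Q+gRNA library, with means of 118 ± 9.99 CPM in SA1Q+gRNA and 94.2 ± 8.02 in ctrl (SD, n = 2 each). That difference was 0.33 (SE 0.09, adjusted p = 0.096, edgeR), and it passed without SA1Q+gRNA replicate 2 (0.40, adjusted p = 0.042, edgeR), with offsets for length and GC content (0.31, adjusted p = 0.013, edgeR) and under DESeq2 (0.33, adjusted p = 0.031). The other ATF3 means were 99.9 ± 4.55 CPM in SA1Q, 107 ± 1.88 in SA2Q+gRNA, 89.8 ± 7.54 in SA2Q, 102 ± 0.776 in SA1+gRNA and 88.2 ± 0.538 in SA2+gRNA (SD, n = 2 each). DDIT3, the pro-apoptotic factor also called CHOP, ran from 20.6 CPM in a SA2+gRNA library to 31.5 in a ctrl library. The ATF5 libraries ran from 32.6 to 50.4 CPM, and every neighbouring pair of groups overlapped. DDIT3 shares its last bases with the end of MARS1, and ATF5 lies across NUP62 and IL4I1 on the other strand; without a stated use of strand, reads of such neighbours cannot be told apart.

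Among the feedback regulators, TRIB3, a pseudokinase that restrains ATF4 and AKT, stood at 55.2 and 50.2 CPM in SA1Q+gRNA and 44.8 and 49.6 in SA1Q, against 61.9 and 56.1 in ctrl. SESN2, a leucine-sensing inhibitor of mTORC1, stood at 103 and 84.4 CPM in SA1Q+gRNA and 71.8 and 78.0 in SA1Q, against 112 and 88.2 in ctrl. In both genes SA1Q was the lowest group and its libraries overlapped with no other group's. PPP1R15A, the phosphatase subunit also called GADD34, stood at 138 and 93.8 CPM in SA1Q+gRNA and 72.0 and 85.4 in SA1Q, against 113 and 91.6 in ctrl, and SA1Q overlapped with SA2+gRNA.

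**Figure D3:**
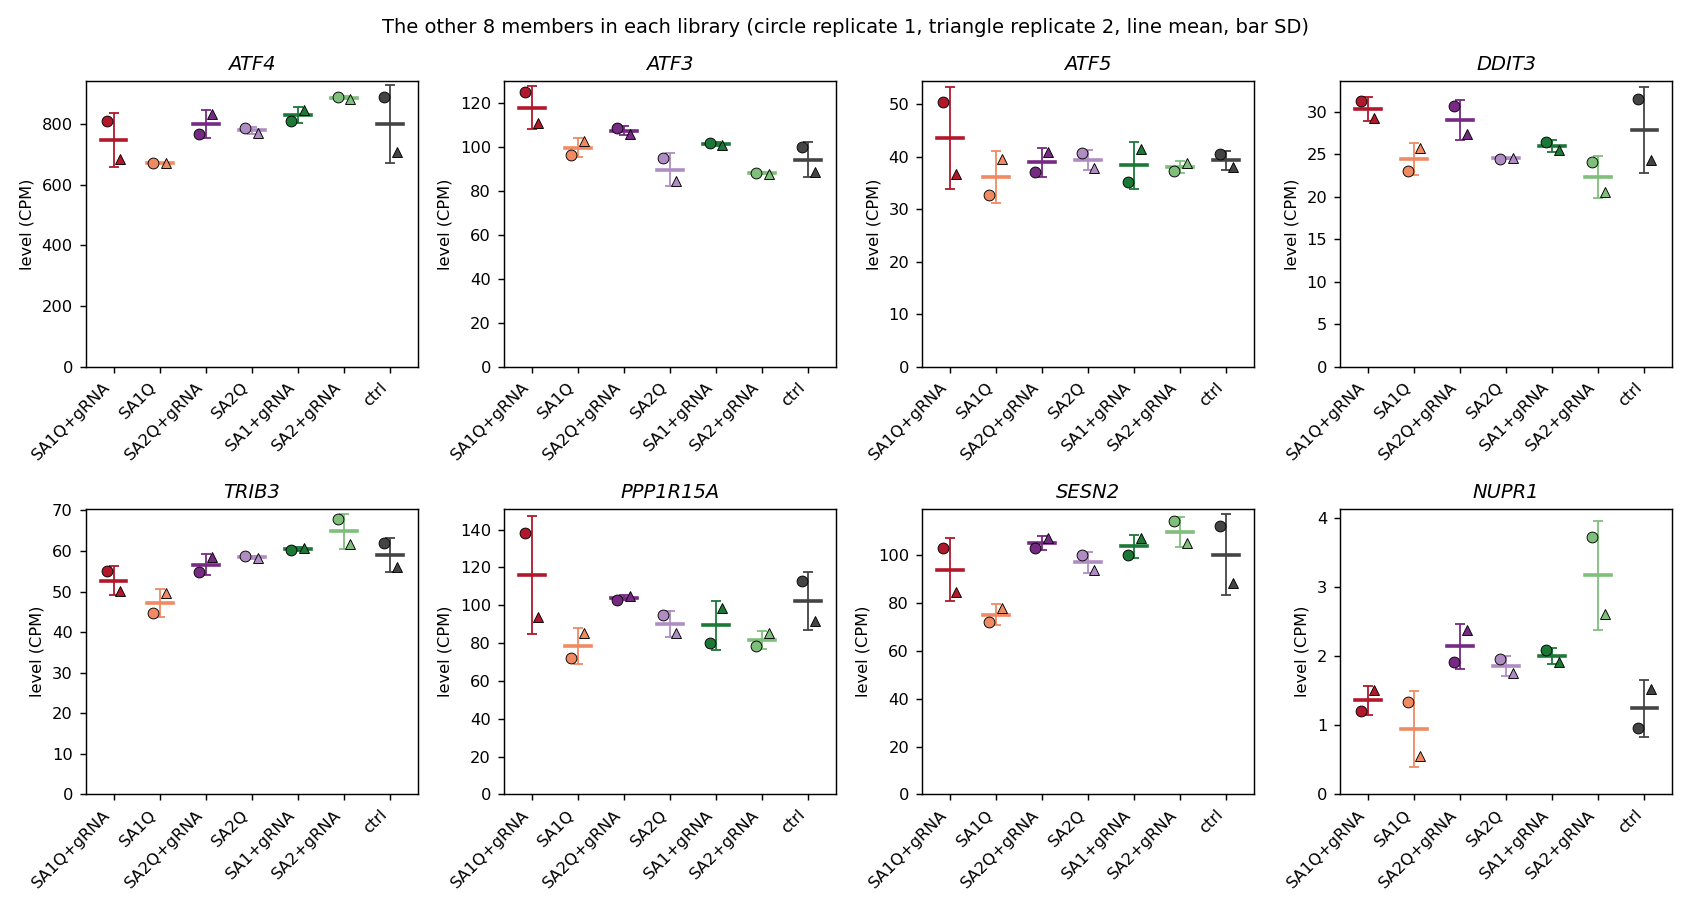
Levels in TMM-scaled CPM of the other 8 genes by group, with circles for replicate 1, triangles for replicate 2 and the mean and SD of n = 2. ATF4 stays between 672 and 890 CPM, NUPR1 spans 0.558 to 3.72 CPM, and PPP1R15A is split between 138 and 93.8 CPM in SA1Q+gRNA.

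The guide comparisons called none of the 10 genes with edgeR or DESeq2 and none of all genes (0%) in either Q line with edgeR (DESeq2 called 1 gene in the SA1Q line and 0 in the SA2Q line), where 12.2% of all genes and 5 of the 10 (SA1Q line) and 1.77% and 1 of the 10 (SA2Q line) had an unadjusted p under 0.05. Of the 10, 9 had values above 0 in SA1Q+gRNA against SA1Q (51.7% of all genes), and the libraries of 7 were higher without overlap, against 38.8% of all genes that did not overlap in either direction. PPP1R15A had the largest, 0.56 (SE 0.16, 95% interval 0.22 to 0.89, adjusted p = 0.39, edgeR), and CHAC1 was at 0.40 (SE 0.19, interval 0 to 0.79, adjusted p = 0.41, edgeR). These values moved with SA1Q+gRNA replicate 1, a library that stood apart: without it PPP1R15A was at 0.25 and CHAC1 at 0.19 (adjusted p = 1 each, edgeR), and without replicate 2 PPP1R15A was at 0.80 (adjusted p = 0.0068, edgeR), with ATF3, ATF5 and SESN2 passing too, in a setting that called 2115 of all genes against 0 with every library. In SA2Q+gRNA against SA2Q, 6 of the 10 did not overlap, against 40.7% of all genes, with ATF3 at 0.26 (SE 0.09, adjusted p = 1, edgeR) and CHAC1 at 0.18 (SE 0.17, interval -0.19 to 0.54). The difference of the guide effects between the lines called none of all genes with edgeR or DESeq2 (0%, and 5.66% and 0 of the 10 at an unadjusted p under 0.05) and was 0.22 for CHAC1 (interval -0.31 to 0.76).

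Between the Q lines, with and without guide pooled, CHAC1 was lower in the SA1Q line, with a difference from the SA2Q line of -0.59 (SE 0.13, 95% interval -0.85 to -0.32, adjusted p = 0.023, edgeR). It was 1 of 10 called, against 2.75% of all genes, and this comparison holds the SA1Q libraries of the known contrast. All 4 SA1Q-line libraries (2.53 to 4.01 CPM) lay below all 4 SA2Q-line libraries (4.20 to 4.94), and the share of all genes split like this was not computed. The call was lost without any of 7 single libraries, which were either SA1Q library (adjusted p = 0.07 and 0.096), either SA2Q library (0.077 and 0.12), SA1Q+gRNA replicate 2 (0.056) and either SA2Q+gRNA library (0.075 and 0.11), with values from -0.62 to -0.48 and edgeR throughout. The adjusted p ran from 0.0021 to 0.12 over the alternatives for CHAC1. SESN2 (-0.27, adjusted p = 0.097), TRIB3 (-0.21, 0.10), NUPR1 (-0.79, 0.08) and DDIT4 (-0.43, 0.14) did not pass with edgeR. SESN2 passed, beside CHAC1, without either ctrl library or SA1Q+gRNA replicate 1, DDIT4 passed without either SA2+gRNA library, and NUPR1 without SA1Q replicate 1. Over all genes, 452 were called with every library, 710 and 711 without ctrl replicate 1 and replicate 2, 735 without SA1Q+gRNA replicate 1, 336 and 337 without SA2+gRNA replicate 1 and replicate 2, and 85 to 160 without a library of SA1Q, SA2Q or SA2Q+gRNA. None of the 10 passed between SA1+gRNA and SA2+gRNA, where 0.0122% of all genes did, and 2 of the 10 had an unadjusted p under 0.05 against 4.79% of all genes.

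The other genes known to be raised by ATF4 were followed on a list of 41, of which 33 encode enzymes and transporters of amino acids and 8 encode secreted and surface proteins. All 41 were tested. In SA1Q+gRNA against SA1+gRNA, 12 fell and none rose (0.512% of all genes called lower). Values were below 0 for 36 (49.7% of all genes), with a median of -0.22 (0 over all genes). SLC7A11, the cystine transporter, stood at 10.9 and 14 CPM in SA1Q+gRNA against 27.3 and 31.1 in SA1+gRNA (-1.22, SE 0.12, adjusted p = 0.00029, edgeR). SLC7A11 was already known to be lower in SA1Q cells, which are of the same line as SA1Q+gRNA. ASNS, asparagine synthetase, stood at 132 and 116 CPM in SA1Q+gRNA against 228 and 207 in SA1+gRNA (-0.81, SE 0.10, adjusted p = 0.0012, edgeR), and PSAT1 of serine synthesis differed by -0.60 (SE 0.07, adjusted p = 0.0012, edgeR). STC2, a secreted glycoprotein, differed by -0.71 (SE 0.11, adjusted p = 0.0098, edgeR). The number that fell was 3 without SA1+gRNA replicate 1, 5 without SA1+gRNA replicate 2, 6 without any one library of SA2Q or SA2Q+gRNA, and 3 to 15 over all single libraries. Over all genes 158 were called with every library, 17 and 29 without SA1+gRNA replicate 1 and replicate 2, and 57 to 82 without any one library of SA2Q or SA2Q+gRNA.

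In SA2Q+gRNA against SA2+gRNA none of the 41 passed with edgeR (20 had an unadjusted p under 0.05, against 7.86% of all genes, and DESeq2 called 4, all lower, and 53 of all genes), although 35 values were below 0 (49.8% of all genes) and the median was -0.21 (0 over all genes), and 0 to 5 fell over the alternatives. For the mean of the Q lines against the unsubstituted lines 14 fell (0.603% of all genes called lower), none rose and the median was -0.23. This comparison was chosen after values had been seen, and SLC7A11, among the 14, was already known to be lower in SA1Q cells. The number that fell moved when a single library was left out, a fit that leaves 1 library in a group. Calls over all genes moved in these fits too. SLC7A11 (-0.88, adjusted p = 0.00014), PSAT1 (-0.52, 0.00015), SLC6A9, a glycine transporter (-0.76, 0.0012), and ASNS (-0.58, 0.0013) had the smallest p with edgeR.

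Against ctrl, 7 of the 41 fell in SA1Q+gRNA, against 0.621% of all genes, and 34 values were below 0 (49.3% of all genes; median -0.16). In SA1Q 8 fell, against 1.74% of all genes, and 32 were below 0 (median -0.26), and none rose in either group. Of these 8, 3, SLC7A11, PHGDH and SLC7A5, were known from earlier results, and SLC6A9 stood at 6.74 and 6.95 CPM in SA1Q against 14.1 and 15.4 in ctrl (-1.11, SE 0.14, adjusted p = 0.0018, edgeR). SLC7A11 and SLC7A5 were also among the 7 in SA1Q+gRNA, which shares its line with SA1Q and was set against the same ctrl libraries. None of the 41 was called in SA2Q+gRNA (24 below 0, against 51% of all genes, median -0.04) or SA2Q (27 below 0, against 50.9%, median -0.07) with edgeR. At an unadjusted p under 0.05 there were 9 in SA2Q+gRNA (10.1% of all genes) and 4 in SA2Q (8.86%), the second about the share of all genes. DESeq2 called ALDH1L2 and TNFRSF10B higher and SLC6A9 lower in SA2Q+gRNA, and ALDH1L2 and TNFRSF10B higher in SA2Q, out of 103 and 91 of all genes it called in these groups. The edgeR values were 0.92 in SA2Q+gRNA and 1.14 in SA2Q for ALDH1L2, and 0.38 and 0.33 for the death receptor gene TNFRSF10B. In the unsubstituted lines most values were above 0, with 7 values below 0 and a median of 0.11 in SA1+gRNA (48.9% of all genes below 0) and the same numbers in SA2+gRNA (50%). The 1 gene that rose in each (0.0305% and 0.067% of all genes called higher) was ALDH1L2, a mitochondrial folate enzyme, at 9.05 and 7.81 CPM in SA1+gRNA and 8.82 and 6.32 in SA2+gRNA against 1.79 and 3.41 in ctrl (1.67, SE 0.22, adjusted p = 0.0058, and 1.51, SE 0.23, adjusted p = 0.017, edgeR). The number that fell in SA1Q against ctrl was smaller without either SA1Q library, ctrl replicate 1 or any single library of SA2Q or SA2Q+gRNA. In SA1Q+gRNA against ctrl it was smaller without any single library of SA2Q or SA2Q+gRNA. Calls over all genes also fell in each of these fits, which leave 1 library in a group.

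**Figure D4:**
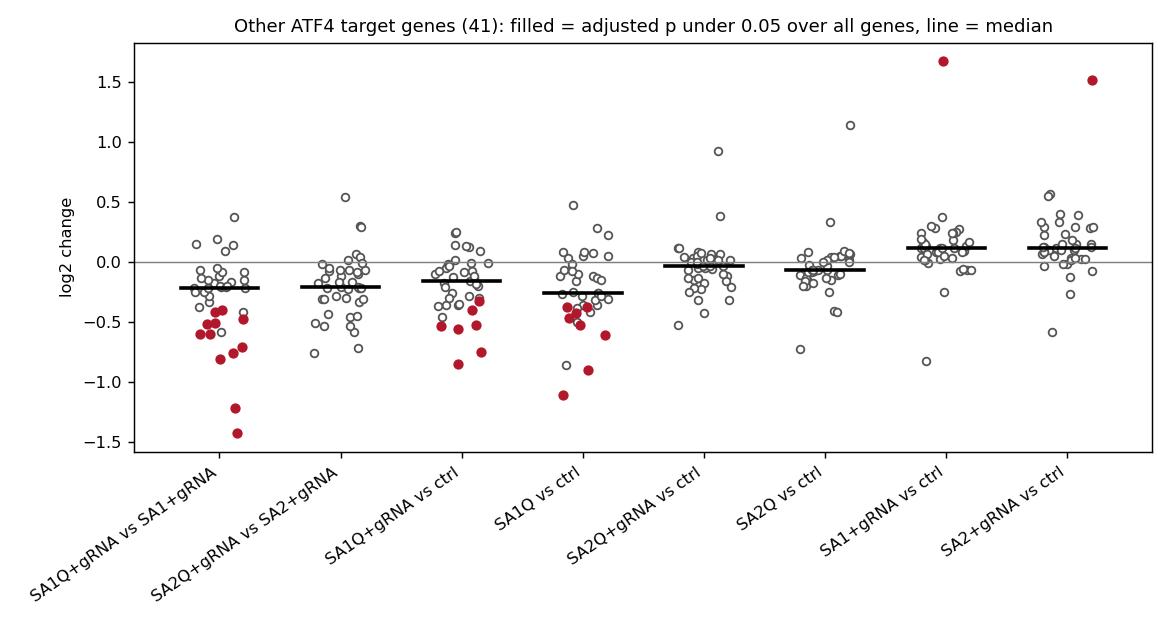
Log2 changes of the 41 other ATF4 target genes in 8 comparisons, each point a gene, filled where the adjusted p over all genes was under 0.05, with the median as a line. The medians lie at -0.22 and -0.21 for Q against unsubstituted deaminase and at 0.11 for both unsubstituted lines against ctrl.

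Between the Q lines, 9 of the 41 were lower in the SA1Q line (1.72% of all genes) and 1 was higher (median -0.12), with CBS (-0.39, adjusted p = 0.0045) and ASNS (-0.40, 0.0088) at the smallest p with edgeR. The 9 include PHGDH and SLC7A11, which were known from earlier results, and the SA1Q libraries enter here too. The count of 9 was smaller without any single library of SA1Q, SA2Q or SA2Q+gRNA, as were calls over all genes. Each of these fits leaves 1 library in a group. The list of ATF6 and XBP1 targets, the other branches of the unfolded protein response, had 5 of 15 lower in that comparison, among them HSPA5, the chaperone BiP (-0.29, adjusted p = 0.032), and HERPUD1 (-0.33, 0.0075, edgeR). None of the 15 passed against ctrl in any group with edgeR (0 to 7 had an unadjusted p under 0.05, the 7 in SA1+gRNA, where 10.7% of all genes did, and DESeq2 called HERPUD1 and XBP1 in SA1Q, where it called 1074 of all genes), and 1, HERPUD1 (-0.51, adjusted p = 0.0098, edgeR), was lower in SA1Q+gRNA than in SA1+gRNA (0.962% of all genes called). There, 12 of the 15 values were below 0 (49.7% of all genes). With edgeR, 8 had an unadjusted p under 0.05, against 17.4% of all genes. DESeq2 called 4 of the 15 (HSPA5, HSP90B1, HERPUD1 and CALR) and 586 of all genes. For the Q difference in the ADAR lines minus that in the ADARB1 lines, 7 had such a p with edgeR, against 9.39%. DESeq2 called HSPA5 and HERPUD1 there, and 52 of all genes.

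Upstream of ATF4, none of 20 genes for the eIF2 kinases and proteins that act on them, the eIF2 and eIF2B subunits and parts of the phosphatase passed in any of the 15 comparisons with edgeR. In these, 0 to 5 had an unadjusted p under 0.05, against 1.77% to 21.2% of all genes, and DESeq2 called 1 in each of 3 comparisons. Of 10 partner factors of ATF4, 2 were called in SA1Q against ctrl (2.8% of all genes), CEBPB lower (-0.72, adjusted p = 0.045) and CEBPG higher (0.29, adjusted p = 0.047), and CEBPG was higher in the SA1Q line than in the SA2Q line (0.30, adjusted p = 0.0075, edgeR), where 2.75% of all genes were called. None of 12 p53 targets passed in any comparison with edgeR. At an unadjusted p under 0.05 there were 0 to 4, against 1.77% to 21.2% of all genes. The 4 were for Q against unsubstituted lines, where 15.4% of all genes had such a p. DESeq2 called 1, FDXR, in SA1Q against ctrl, where it called 1074 of all genes. Of 9 tested genes of glutathione handling, GGT1 was lower in the SA1Q line than in the SA2Q line (-0.46, adjusted p = 0.02, edgeR; 1 of 9, in the comparison with 2.75% of all genes), and CHAC2, the paralog of CHAC1, stayed between 17.5 and 20.5 CPM in all 14 libraries.

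Over the 14 libraries, the 5 genes whose log2 level followed CHAC1 most closely among 13740 genes with a mean of at least 1 CPM were EEF1G (Pearson's r 0.98), SLC25A6 (0.97), QARS1 (0.97), EIF3F (0.96) and RPL13A (0.96). Their r over the 12 libraries that did not stand apart was 0.96 to 0.98. Of the 10 members, TRIB3 (0.86), ATF4 (0.82), SESN2 (0.80) and DDIT4 (0.71) had the highest r with CHAC1, then NUPR1 (0.52), and ATF5 (0.15), PPP1R15A (0.14), DDIT3 (-0.10) and ATF3 (-0.34) the lowest. Over the 12 libraries the r was 0.85 for TRIB3, 0.82 for ATF4, 0.81 for SESN2, 0.80 for DDIT4 and 0.72 for NUPR1, and it was 0.34 for ATF5, 0.19 for PPP1R15A, -0.26 for DDIT3 and -0.38 for ATF3. ATF4, TRIB3 and SESN2 followed each other (0.90 to 0.94), and ATF3 followed DDIT3 (0.78). These values describe 14 libraries that share 7 groups and their scaling, and carry no test.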

How the data were processed

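Poly(A) RNA of 14 libraries was sequenced paired-end from a stranded kit, per the labels' protocols. The submitters' processing notes name STAR 2.4.2a, Trim Galore and build hg19 and no order. How fragments were counted, and with which treatment of strand and multiple matches, is not given in the sources used here. The authors deposited, per the file headers and for each of 46830 RefSeq transcripts, fragment counts, an FPM score (fragments scaled to library size; transcripts share fragments) and FPKM. The FPKM values had been scaled by the authors to transcript length and library size before they were deposited, per the file headers. Coordinates are hg19.

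Accessions were named from a RefSeq table of GRCh38.p14 (names only) and a GENCODE table (98.6% of 45595 named). Entries without a name held 0.81% of counts and were left out, as were those under 200 nucleotides. The entry with the highest mean FPM stood for each of 22410 genes.

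Deposited counts were tested in edgeR 4.0.16 (R 4.3.3; TMM scaling, filterByExpr, quasi-likelihood, two-sided) in 1 fit of 14 libraries and 7 groups with 7 residual degrees of freedom and a common biological coefficient of variation of 8.67%. P-values were adjusted by Benjamini-Hochberg over 16418 genes within each comparison, and an adjusted p under 0.05 was called; chance alone gives 821 genes at an unadjusted p under 0.05. Levels are TMM-scaled CPM as mean ± SD (n = 2), and intervals cover the pooled spread. There were 13 planned comparisons of groups, a test over the 7 groups, and 2 comparisons added after seeing the data. The procedure was tested on simulated data. Alternatives used DESeq2 1.42.0, limma 3.58.1 on log2(FPKM + 1), other scaling, no filter, length and GC offsets, a replicate block, halved counts of SA1+gRNA replicate 2 and libraries left out. The members and all gene lists were chosen with earlier results of these data known. All 10 members are named; of the other lists, up to 4 called genes with the smallest p in a comparison could be named, and genes beyond these (CHAC2) were chosen for their relation to a member. Sequences are RefSeq's, matched by symbol.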

Additional observations from a re-analysis of the deposited data

How the results depend on the processing

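With 2 libraries per group, counts of calls among the 10 genes moved with the processing. Differences called in the fit to all libraries kept their sign in every alternative. Some differences that were not called changed sign, such as DDIT4 in SA2Q against ctrl (-0.25 to 0.14). Beyond what stands beside the results, the cause was not tested. Counts in SA1Q against ctrl include CHAC1, for which that contrast is not a test. DESeq2 called 3 in SA1Q against ctrl, 1 in SA2Q, 2 in SA1Q+gRNA and 1 in SA2+gRNA (each against ctrl), 1 in SA2Q+gRNA against SA2+gRNA, 3 between the Q lines, 5 for Q against unsubstituted lines and 7 over the 7 groups. In that order it called 1074, 91, 480, 128, 53, 805, 473 and 1359 of all genes, where edgeR called 460, 14, 171, 17, 2, 452, 141 and 258, so calls rose over all genes too. Without the filter on low counts there were 3, 2 and 2 in SA1Q, SA1Q+gRNA and SA2+gRNA against ctrl, 1 in SA2Q+gRNA against SA2+gRNA, 3 between the Q lines and 5 over the 7 groups (631, 271, 63, 15, 534 and 716 of all genes). Without both libraries that stood apart there were 2 in SA1Q and 1 in SA2+gRNA against ctrl, 1 in SA2Q+gRNA against SA2+gRNA, 5 between the Q lines, 6 for Q against unsubstituted lines and 7 over the groups (1218, 473, 119, 1959, 423 and 1831 of all genes). The length and GC offset gave 1 in SA2Q and 2 in SA1Q+gRNA against ctrl, 1 in SA2Q+gRNA against SA2+gRNA, 4 between the Q lines, 7 for Q against unsubstituted lines and 8 over the groups (181, 1012, 36, 1546, 976 and 1372 of all genes). limma on FPKM gave 2 in SA1Q against ctrl and 1 in SA1Q+gRNA against SA1+gRNA (532 and 136 of all genes).

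Leaving out 1 library gave 1 to 4 in SA1Q against ctrl, 1 to 2 in SA1Q+gRNA and 0 to 1 in SA2+gRNA against ctrl, 0 to 4 in SA1Q+gRNA against SA1Q, 0 to 3 in SA1Q+gRNA against SA1+gRNA, 0 to 1 in SA2Q+gRNA against SA2+gRNA, 0 to 2 between the Q lines, 2 to 5 for Q against unsubstituted lines and 2 to 7 over the groups. In that order the ranges over all genes were 38 to 1164, 93 to 463, 2 to 48, 0 to 2115, 17 to 2082, 1 to 9, 85 to 735, 30 to 1049 and 91 to 1057. A lone library is then assumed to vary like the other groups. In SA2Q+gRNA and SA1+gRNA against ctrl, SA2Q+gRNA against SA2Q, SA1+gRNA against SA2+gRNA and both tests of a difference of effects, the count was 0 throughout.

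Of the 41 ATF4 targets, the 12 lower in SA1Q+gRNA than in SA1+gRNA became 22 with the length and GC offset and 7 with the replicate block, the 7 lower in SA1Q+gRNA than in ctrl became 12 and 4, and the offset gave 17 in place of 9 between the Q lines (16 without both libraries that stood apart) and 25 in place of 14 for Q against unsubstituted lines. Calls over all genes moved the same way, in SA1Q+gRNA against SA1+gRNA to 706 with the offset and 94 with the block, from 158. Replicate numbers did not pair libraries (over 21 pairs of groups, r from -0.15 to 0.44, median -0.01, 1 above 0.1). A fit with the replicate block moved no count of called members: CHAC1 in SA1Q+gRNA against SA1+gRNA was then -1.05 and DDIT4 -1.04. For NUPR1, the lowest gene, the range of log2 level over libraries was 2 with 0.5 added to CPM and 1.6 with 1 added, so its low counts limit its values.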
